A study of Mus musculus with 6 samples.

Results

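The mTOR kinase and the proteins that hold it back were examined in MC3T3-E1 cells, a mouse pre-osteoblast line that lays down mineralized matrix in osteogenic medium. The group was defined by name and held 10 genes of the 54532 in the deposited table. These were Mtor, its complex partners Rptor and Rictor, the brake Deptor, the tuberous sclerosis genes Tsc1 and Tsc2, the stress gene Ddit4 and the sestrins Sesn1, Sesn2 and Sesn3. All 10 were found once in the table and all 10 passed the limit on low values, a mean of at least 0.5 FPKM over the samples, which left 12681 genes for testing. FPKM is the number of reads of a gene divided by its length and by the size of the library. Levels of different genes thus compare only as far as the listed lengths hold, and how these were defined is not stated. RNA sequencing was available for 3 samples kept for 3 days in osteogenic medium, the controls, and 3 samples that also received 0.2 mM metformin, a biguanide drug for type 2 diabetes. The day count and the dose are given in the text of the study, not in the sample labels. Its methods also give the medium that both groups share, with β-glycerophosphate, ascorbic acid and the glucocorticoid dexamethasone. The study calls its samples biological replicates, but how the cultures were kept apart is not described, so the p-values measure only the spread between these samples of 1 cell line.

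mTOR is a serine/threonine kinase that works in a pair of complexes. In mTORC1 it is joined by Raptor (Rptor), senses amino acids, growth factors and energy at the lysosome, and drives protein and lipid synthesis. In mTORC2 it is joined by Rictor and phosphorylates AKT and related kinases. The TSC1 and TSC2 proteins switch off the small GTPase Rheb, which activates mTORC1. REDD1, the product of Ddit4, is induced by hypoxia, glucocorticoids and stress and acts through TSC2. Sestrins are stress-induced proteins that restrain mTORC1 through the GATOR complexes, and at least Sestrin2 also binds leucine. Metformin is known to restrain mTORC1 in many cell types, in part through the kinase AMPK. In osteoblasts mTORC1 activity is linked to the making of matrix. The data here are transcript levels and say nothing of the activity of the kinase. In bulk samples fewer cells of a type and less RNA per cell cannot be told apart.

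The clearest change was in Sesn1, which fell to 0.296 of its control level (a 3.38-fold difference of mean FPKM) in the 3 samples with metformin. Deptor, which encodes a protein that binds mTOR and inhibits it, was the other gene called, at 0.598 of its control level. Of the 10 genes, 0 were called higher and 2 were called lower by limma-trend with Benjamini-Hochberg adjustment over all tested genes, where 13.2% of all tested genes were called higher and 9.28% were called lower. The median log2 fold change of the 10 genes was -0.25, beside 0.0053 over all tested genes. The 3 samples with metformin lay wholly below the 3 controls for 4 genes (Sesn1, Deptor, Rictor and Rptor) and wholly above them for 1 (Sesn2), and for the other 5 the groups overlapped. Over all tested genes the samples with metformin were wholly below for 20.5% and wholly above for 23.6%. With 10 genes these counts do not set the group apart from the rest of the table.

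**Figure D1:**
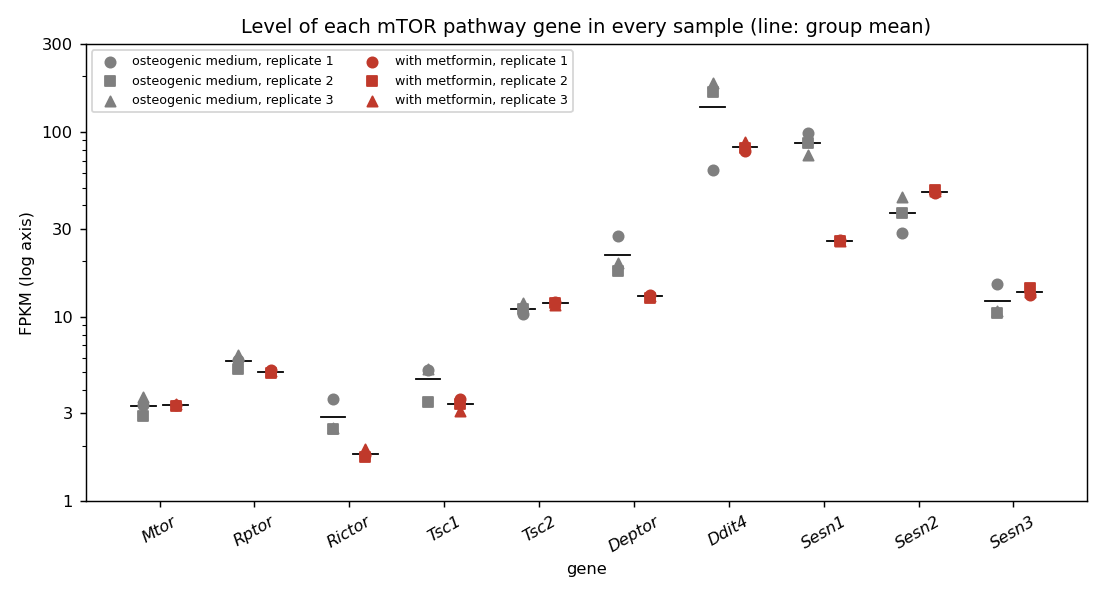
FPKM on a log axis of each of the 10 genes in every sample, with controls in grey, samples with metformin in red, marker shapes for the replicates and a line at the mean of each group. The red points of Sesn1 sit near 25.8 FPKM, far below its 3 controls, and the grey points of Ddit4 spread from 62.3 to 184 FPKM.

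Libraries held 18399861 to 22111790 reads, and the 10 genes had between 600 and 7310 reads in a library. Control replicate 1 stood apart, with Pearson correlations across genes of 0.960 and 0.952 with the other controls, which had 0.988 with each other. The share of mitochondrially encoded reads was 6.36% to 10.01% in the controls and 2.72% to 3.16% with metformin. Of 12 osteoblast markers, 11 had a mean of at least 0.5 FPKM and 0 of 4 endothelial markers did. The summed level of the osteoblast list was 11930 to 13995 FPKM in the controls and 8799 to 9283 with metformin. Its members went different ways. With metformin, the matrix protein genes Spp1 (6565 to 8357 FPKM in the controls, 2680 to 2727 with metformin) and Ibsp were below every control. So were the factor gene Runx2 (28.6 to 34.1 FPKM, then 25.8 to 27.4) and Phex. The collagen genes Col1a1 (927 to 1585 FPKM, then 2366 to 2576) and Col1a2 and the factor genes Dlx5 and Sp7 were above every control. For Alpl, Bglap, Postn and Sparc the groups overlapped. The list for macrophages and osteoclasts summed to 245 to 273 FPKM and 150 to 163 FPKM, nearly all of it from the protease gene Ctsk, with Ptprc, Adgre1 and Acp5 under 0.05 FPKM in every sample. Of the other lists, 2 of 6 adipocyte, 3 of 5 chondrocyte and 1 of 5 muscle markers reached that limit. Whether these differences had a part in the results on the mTOR genes was not tested.

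Promoters are shown for the sestrins whose levels went different ways and for Ddit4, so that the sequence around each start can be read beside its values. They are the RefSeq windows of 300 bases on GRCm38.p6, from 250 bases before a start to 50 after it, printed 5′ to 3′ along the gene. RefSeq windows were matched for 9 of the 10 genes, 10 windows in all, because Sesn1 has 2 starts. Capitals mark every match, on either strand, to TATAAA (the TATA box), GGGCGG (the GC box), CCAAT (the CCAAT box), CACGTG (the E-box), TGATGNAA (a composite of ATF4 and C/EBP sites), TGACGTCA (the cAMP response element), TGTTTAC (the core bound by forkhead factors such as FOXO) or AGAACA (the core of a glucocorticoid receptor site). Matches can overlap, as they do in the downstream window of Sesn1.
Sesn1 upstream start, chr10:41810324-41810623, plus strand: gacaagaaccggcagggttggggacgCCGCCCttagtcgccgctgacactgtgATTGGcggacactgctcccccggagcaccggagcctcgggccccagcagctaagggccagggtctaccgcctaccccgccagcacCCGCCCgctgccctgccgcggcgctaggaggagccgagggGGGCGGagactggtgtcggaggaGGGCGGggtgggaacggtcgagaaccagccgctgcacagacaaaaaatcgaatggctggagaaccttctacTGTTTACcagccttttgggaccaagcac
Sesn1 downstream start, chr10:41887189-41887488, plus strand: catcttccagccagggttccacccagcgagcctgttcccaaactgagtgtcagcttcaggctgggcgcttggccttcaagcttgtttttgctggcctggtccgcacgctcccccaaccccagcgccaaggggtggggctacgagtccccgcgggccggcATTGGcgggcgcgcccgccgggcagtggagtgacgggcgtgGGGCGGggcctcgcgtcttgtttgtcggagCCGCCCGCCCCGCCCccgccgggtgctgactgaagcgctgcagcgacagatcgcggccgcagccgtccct
Sesn2, chr4:132510407-132510706, minus strand: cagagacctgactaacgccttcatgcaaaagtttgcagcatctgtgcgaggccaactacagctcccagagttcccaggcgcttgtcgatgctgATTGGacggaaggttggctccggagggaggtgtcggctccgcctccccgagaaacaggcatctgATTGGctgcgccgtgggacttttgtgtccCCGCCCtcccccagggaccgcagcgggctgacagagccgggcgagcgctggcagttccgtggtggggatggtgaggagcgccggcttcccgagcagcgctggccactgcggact
Ddit4, chr10:59951721-59952020, minus strand: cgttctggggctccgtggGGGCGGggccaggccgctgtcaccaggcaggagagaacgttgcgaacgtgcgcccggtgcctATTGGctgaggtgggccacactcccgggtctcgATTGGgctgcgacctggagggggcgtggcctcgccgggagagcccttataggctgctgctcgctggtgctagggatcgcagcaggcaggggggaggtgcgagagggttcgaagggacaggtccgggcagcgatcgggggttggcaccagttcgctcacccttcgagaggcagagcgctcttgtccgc

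All 4 of these windows hold the GC box and the CCAAT box, which 35.7% and 37.4% of the 32851 RefSeq windows of this length also hold. Of the windows not printed, those of Mtor, Rictor and Sesn3 hold both and those of Rptor, Tsc1 and Tsc2 hold neither. The only match to the forkhead core among the 10 windows is in the window of the upstream start of Sesn1, and 3.65% of all windows have one. It lies after that start, at positions 22 to 28. None of the 10 windows holds the TATA box, the E-box, the ATF4 composite, the cAMP response element or the glucocorticoid receptor core, which are in 13.6%, 7.15%, 3.97%, 1.79% and 19.0% of all windows. A match describes the letters only, and its absence says only that these letters are not in the window.

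Among the sestrins, Sesn1 had the largest change of the 10 genes, while Sesn2 and Sesn3 were not called. Sesn1 lies on chromosome 10 (GRCm38, 41809935 to 41908424, plus strand) and encodes Sestrin1, known as a target of p53 and of FOXO factors. It had 98.5, 87.5 and 75.2 FPKM in control replicates 1 to 3 and 26.0, 25.8 and 25.6 FPKM in the samples with metformin. The groups did not overlap, and the lowest control was above every sample with metformin by more than the whole range of the controls. The log2 fold change of FPKM + 1 was -1.71 (standard error 0.11, adjusted p = 0.000193 by limma-trend). Sesn1 was called whichever of the 6 samples was omitted, with log2 fold changes from -1.81 to -1.62, and in all 7 other alternatives.

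Sesn2 (chromosome 4, 132492032 to 132510501, minus strand) encodes Sestrin2, a leucine-binding member that is induced by ATF4 and by p53. Its levels were 28.5, 36.5 and 44.3 FPKM in the controls and 46.7, 48.6 and 47.6 FPKM with metformin. Every sample with metformin was above every control, yet control replicate 3 was close to them. The log2 fold change was 0.40 (standard error 0.16), and it was not called (adjusted p = 0.119 by limma-trend, 95% interval 0.025 to 0.77 before adjustment). Sesn2 was called without control replicate 3 (log2 fold change 0.55, adjusted p = 0.0323 by limma-trend) and after a correction for GC content (0.32, adjusted p = 0.0140 by limma-trend), an alternative chosen after the data were seen.

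Sesn3 (chromosome 9, 14275067 to 14333101, plus strand) encodes Sestrin3, a known FOXO target. It had 15.0, 10.5 and 10.8 FPKM in the controls and 13.2, 14.2 and 13.5 FPKM with metformin. The samples with metformin fell between control replicate 1 and the other 2 controls. The log2 fold change was 0.18 (95% interval -0.15 to 0.51, adjusted p = 0.407 by limma-trend). Without control replicate 1 it was 0.33 with an adjusted p of 0.00528 by limma-trend, in a fit where 23.4% of all tested genes were called higher and 20.4% were called lower.

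The makeup of the sestrin transcripts shifted with these levels. In the controls Sesn1 made up 69.4%, 65.1% and 57.7% of the summed FPKM of the sestrins, and with metformin it made up 30.3%, 29.1% and 29.5%. Sesn2 went from 20.1%, 27.1% and 33.998% of the sum to 54.4%, 54.8% and 54.9%. By FPKM, Sesn1 was thus the most abundant sestrin in each control and Sesn2 in each sample with metformin, without overlap between the groups. The summed level of the sestrins was 136 ± 5.92 FPKM (SD, n = 3) in the controls and 87.0 ± 1.39 FPKM (SD, n = 3) with metformin. These shares describe transcripts per unit of length and were not tested. They depend on the listed lengths. By reads, which ignore length, Sesn3 exceeded Sesn2 in every sample, with 3985, 4730 and 4030 against 3217, 3677 and 3225 with metformin.

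**Figure D2:**
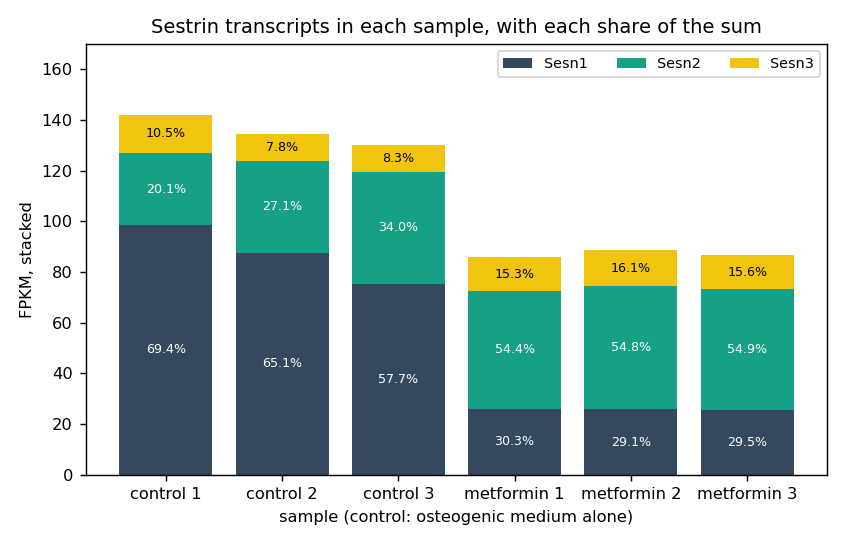
Stacked FPKM of Sesn1, Sesn2 and Sesn3 in each of the 6 samples, with each gene's share of the sum written in its bar. Sesn1 holds 57.7% to 69.4% of the sum in the controls and 29.1% to 30.3% with metformin.

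Ddit4, on chromosome 10 (59949669 to 59951834, minus strand), was the most abundant of the 10 genes in both groups by mean FPKM. Its levels were 62.3, 165 and 184 FPKM in the controls and 78.9, 82.3 and 88.1 FPKM with metformin. Control replicate 1 was below every sample with metformin, whereas the other 2 controls were far above them. With all 6 samples the log2 fold change was -0.57 (standard error 0.39, 95% interval -1.50 to 0.36), and it was not called (adjusted p = 0.343 by limma-trend). Without control replicate 1 the log2 fold change was -1.06 and Ddit4 was called lower (adjusted p = 0.000156 by limma-trend), so this library decided the call. Ddit4l, which encodes the related REDD2, had 16.2, 13.8 and 10.9 FPKM in the controls and 9.57, 9.98 and 10.02 FPKM with metformin, with a log2 fold change of -0.42 that was not called (adjusted p = 0.0765 by limma-trend). Ddit4l was called without control replicate 1 (-0.29, adjusted p = 0.0494 by limma-trend) and without control replicate 3 (-0.56, adjusted p = 0.0170), and also with libraries scaled to total reads and with the GC correction.

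Deptor (chromosome 15, 55112317 to 55259271, plus strand) had 27.3, 17.7 and 19.6 FPKM in the controls and 13.0, 12.6 and 13.0 FPKM with metformin. The groups did not overlap. The log2 fold change was -0.68 (standard error 0.16, adjusted p = 0.0247 by limma-trend). The call stood when any one control was omitted and was lost when any one sample with metformin was, with adjusted p-values of 0.0865 to 0.0955 by limma-trend. Without control replicate 1, its highest control, the log2 fold change was -0.50 and the call held. Deptor overlaps Gm9920 on the other strand, which had at most 0.294 FPKM in any sample.

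The kinase itself showed no call in any fit. Mtor (chromosome 4, 148448611 to 148557683, plus strand) had 3.33, 2.88 and 3.68 FPKM in the controls and 3.30, 3.29 and 3.37 FPKM with metformin, all inside the range of the controls. Its log2 fold change was 0.013 with a 95% interval of -0.21 to 0.24 (adjusted p = 0.940 by limma-trend). The sign depended on the settings: it was -0.0092 when libraries were scaled to their total reads, -0.034 after the GC correction and -0.059 without control replicate 2.

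Of the proteins that define the complexes, the mTORC1 scaffold gene Rptor (chromosome 11, 119602905 to 119899576, plus strand) had 5.82, 5.19 and 6.22 FPKM in the controls and 5.14, 4.92 and 5.05 FPKM with metformin. The samples with metformin were just below the lowest control. The log2 fold change of -0.16 was not called (95% interval -0.36 to 0.049, adjusted p = 0.243 by limma-trend). The mTORC2 scaffold gene Rictor (chromosome 15, 6708379 to 6800401, plus strand) had 3.58, 2.47 and 2.50 FPKM in the controls and 1.79, 1.73 and 1.92 FPKM with metformin. It was below every control in every sample with metformin, at 0.636 of the mean control level. Its log2 fold change was -0.44 (standard error 0.13) with an adjusted p of 0.0519 by limma-trend, next to the threshold. Rictor passed with 5 of the 7 alternatives that kept all samples, with adjusted p-values of 0.00376 (the GC correction, chosen after the data were seen) to 0.0467 by limma-trend or voom, and failed when low genes were kept in the test (0.133) and in the fit blocked on replicate number (0.0942). Without control replicate 1 the log2 fold change was -0.31 and it was called (adjusted p = 0.0201 by limma-trend), but omitting any one of the other 5 samples left it uncalled, with adjusted p-values of 0.0601 to 0.169. The level of Rictor relative to Rptor was 0.498 ± 0.108 (SD, n = 3) in the controls and 0.360 ± 0.018 (SD, n = 3) with metformin.

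Neither gene of the TSC complex was called. Tsc1 (chromosome 2, 28641228 to 28691167, plus strand), whose product steadies TSC2, had 5.12, 3.45 and 5.17 FPKM in the controls and 3.59, 3.37 and 3.09 FPKM with metformin. Control replicate 2 lay among the samples with metformin. The log2 fold change was -0.34 (95% interval -0.69 to 0.00085, adjusted p = 0.141 by limma-trend), and without control replicate 2 it was -0.50 and called (adjusted p = 0.0242). Tsc2 (chromosome 17, 24595816 to 24632630, minus strand), which encodes the part that acts on Rheb, had 10.3, 11.0 and 11.8 FPKM in the controls and 12.0, 11.9 and 11.6 FPKM with metformin. The groups overlapped at control replicate 3, and the log2 fold change was 0.092 (95% interval -0.10 to 0.29, adjusted p = 0.462 by limma-trend). Tsc2 overlaps Pkd1 on the other strand, which had 19.1 to 28.6 FPKM in the controls and 28.9 to 30.5 FPKM with metformin. The sources used here do not say whether the counting used strand, so reads of the shared stretch cannot be told apart.

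**Figure D3:**
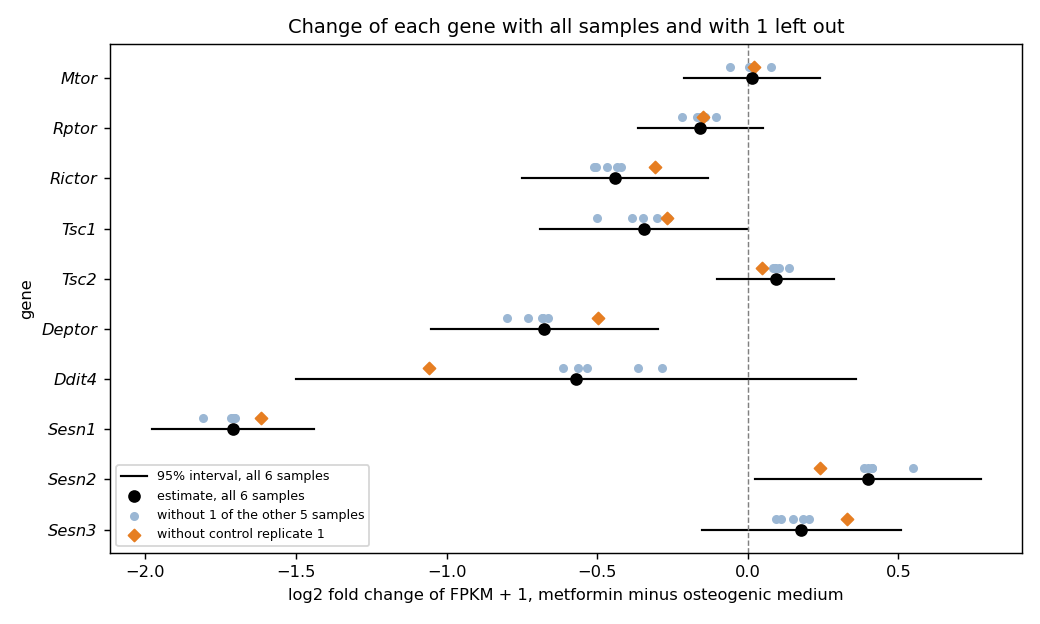
Log2 fold change of FPKM + 1 of each gene, metformin minus osteogenic medium, as a black point with its 95% interval for all 6 samples and small markers for fits that left out one sample. The marker without control replicate 1 is at -1.06 for Ddit4, far from the -0.57 of all samples, while every marker of Sesn1 lies between -1.81 and -1.62.

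The order of the levels by FPKM, which depends on the listed gene lengths, was led by Ddit4 in both groups. In the controls it was followed by Sesn1, Sesn2, Deptor, Sesn3, Tsc2, Rptor, Tsc1, Mtor and Rictor. The neighbours whose ranges overlapped there were Ddit4 and Sesn1, Sesn3 and Tsc2, Tsc1 and Mtor, and Mtor and Rictor. With metformin, Sesn2 stood above Sesn1 and Sesn3 above Deptor, and the places from Tsc2 down were as in the controls. Only Tsc1 and Mtor had overlapping ranges in that group.

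The spread between samples also differed. The SD of log2(FPKM + 1) was 0.090 to 0.85 for the 10 genes in the controls and 0.011 to 0.083 with metformin, smaller with metformin for 10 of 10 genes. Of all tested genes 84.1% had the smaller SD with metformin. Among the controls, replicate 1 was the highest for Rictor, Deptor, Sesn1 and Sesn3, whose longest transcripts have a GC content of 42.5% to 49.8%. It was the lowest for Tsc2, Ddit4 and Sesn2, with 54.7% to 58.7% GC. For Tsc1, Mtor and Rptor, with 51.7%, 54.2% and 56.5% GC, it lay between the other controls. For Ddit4, replicate 1 was 1.47 below the mean of the other controls on the log2 scale as deposited, and 1.02 below after the GC correction, while for Sesn2 the gap went from 0.48 below to 0.010 above. The correction widened the gap for Rptor, from 0.029 to 0.39 above, for Mtor, from 0.023 to 0.25, and for Tsc1, from 0.22 to 0.31. It narrowed the gap for Rictor, from 0.39 to 0.10 above, for Deptor, from 0.53 to 0.30, and for Sesn3, from 0.46 to 0.25. The gap of Tsc2 went from 0.13 below to 0.12 above, and that of Sesn1 was 0.28 and then 0.27. Across all tested genes, the deviation of this library had a Spearman correlation of -0.668 with GC content, as a description over genes, which are not replicates. The same value was 0.411 for control replicate 2, 0.635 for control replicate 3 and 0.127, 0.116 and -0.224 for metformin replicates 1 to 3. Each deviation was taken from the other samples of the group, so the values of a group depend on each other.

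**Figure D4:**
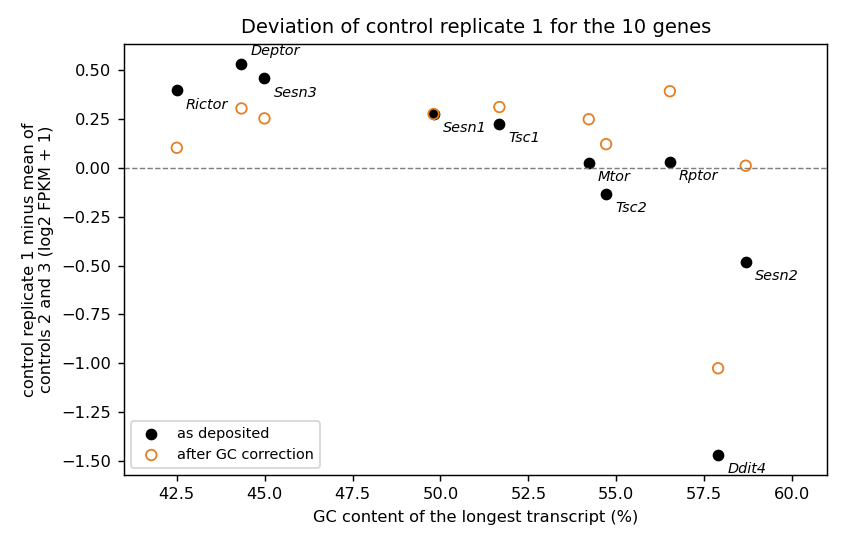
Log2(FPKM + 1) of control replicate 1 minus the mean of controls 2 and 3 for each of the 10 genes, against the GC content of the longest transcript in percent, as deposited (black) and after the GC correction (open). Ddit4 lies lowest at -1.47 and stays lowest at -1.02 after the correction.

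The rest of the pathway was described by 7 lists with 70 genes, of which 68 were tested. Of these 4 were called higher and 14 were called lower, which is 5.88% and 20.6% of them, beside 13.2% and 9.28% of all tested genes, and the median log2 fold change was -0.089. Among the other parts of the complexes, Mlst8, the shared subunit, was not called (log2 fold change 0.18, adjusted p = 0.325 by limma-trend), and neither was Mapkap1, the Sin1 subunit of mTORC2 (0.17, adjusted p = 0.169), nor Akt1s1, the PRAS40 inhibitor of mTORC1 (-0.22, adjusted p = 0.643). Control replicate 1 decided the call of Akt1s1, which was -0.58 and called lower without it (adjusted p = 0.00124 by limma-trend), and the value was -0.018 without control replicate 3 and -0.051 without control replicate 2. Prr5 and Prr5l encode Protor subunits that bind Rictor, and they went opposite ways. Prr5 had 2.57, 4.95 and 5.28 FPKM in the controls and 0.736, 0.551 and 0.750 FPKM with metformin. Its log2 fold change was -1.61 (adjusted p = 0.00315 by limma-trend), and the groups did not overlap. Prr5l had 4.29, 3.87 and 3.74 FPKM in the controls and 5.62, 6.24 and 5.70 FPKM with metformin, a log2 fold change of 0.47 (adjusted p = 0.00982). Tti2, part of the chaperone complex that helps to assemble mTOR, fell by 0.30 on the log2 scale (adjusted p = 0.0284).

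The GTPase gene Rheb was not called, with a log2 fold change of -0.012 (adjusted p = 0.948 by limma-trend) whose sign turned without control replicate 1 and without metformin replicate 3. Tbc1d7, another subunit of the TSC complex, was not called either (0.24, adjusted p = 0.186). Rhebl1, the close relative of Rheb, fell by 0.73 on the log2 scale (adjusted p = 0.0245). The Rag and Ragulator proteins bring mTORC1 to the lysosome, and their list also held Flcn, Fnip1, Fnip2 and Slc38a9, which are neither. Of its 12 tested genes, 0 were higher and 3 were lower: Fnip2 (log2 fold change -0.52), Rragd (-0.48) and Lamtor5 (-0.31). The median of that list was -0.22. Its lower genes were 25.0% of those tested, beside 9.28% of all tested genes, where 13.2% were higher. Of those lower genes, Rragd passed the limit on low values only through the controls (mean 0.967 FPKM, and 0.404 FPKM with metformin). Sestrins act through GATOR, and the list of GATOR and KICSTOR genes also held Castor1, Castor2 and Bmt2. Of its 14 genes, 1 was lower (Nprl2, a GATOR1 subunit, -0.37, adjusted p = 0.0297 by limma-trend) and 0 were higher. The lower share was 7.14%, under the 9.28% of all tested genes.

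Downstream of mTORC1, 17 genes of substrates and effectors were tested, with 1 higher and 4 lower. The shares were 5.88% and 23.5%, beside 13.2% and 9.28% of all tested genes. Grb10, an adaptor that mTORC1 phosphorylates, was higher (log2 fold change 0.95, adjusted p = 0.00945 by limma-trend). The lower genes were Lpin1, a phosphatidate phosphatase (-1.07), Pdcd4, an inhibitor of translation (-0.98), Maf1, a repressor of RNA polymerase III (-0.65), and Atg13, part of the autophagy starting complex (-0.56). Of 7 genes of mTORC2 substrates, the kinase gene Prkca was higher (0.63), Sgk1 was lower (-0.65) and Ndrg1, a substrate of SGK1, was lower (-0.48). The shares of that list were 14.3% higher and 28.6% lower. Sgk1 had 352, 320 and 331 FPKM in the controls and 220, 215 and 202 FPKM with metformin, without overlap. Of 7 other regulators, Ubqln1 was higher (0.35) and Dapk1 was lower (-0.9999). That is 14.3% in each direction, beside 13.2% and 9.28% of all tested genes.

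Lists of 5 upstream responses hold 58 genes, 51 of them tested, with 8 higher and 13 lower. These are 15.7% and 25.5% of them, beside the same 13.2% and 9.28%. Of 11 tested genes of the ATF4 axis, 2 were higher and 3 were lower, or 18.2% and 27.3% of them. Chac1, a glutathione-degrading enzyme, had 5.19, 10.9 and 10.7 FPKM in the controls and 27.6, 29.0 and 25.8 FPKM with metformin (log2 fold change 1.58, adjusted p = 0.00600 by limma-trend), and the asparagine synthetase gene Asns was higher by 0.45. Ddit3, which encodes the stress factor CHOP, was lower (-1.15), as were the stress-induced factor gene Atf3 (-1.06) and the lipoprotein receptor gene Vldlr (-0.84). Of 11 tested genes of the p53 axis, Btg2 was higher (1.35) and Trp53inp1 was lower (-1.09), with 9 not called. The shares were 9.09% in each direction, under the 13.2% and 9.28% of all tested genes.

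Of 11 tested genes of the FOXO axis, 1 was higher and 5 were lower, with a median log2 fold change of -0.33. The shares were 9.09% and 45.5%, beside 13.2% and 9.28% of all tested genes. Cited2 was the higher one (1.69). Among the lower were Gadd45a, a growth arrest gene (-2.13), the ubiquitin ligase gene Fbxo32 (-1.01), the factor gene Foxo3 itself (-0.94) and the repressor gene Bcl6 (-0.80), with Foxo1 (-0.43) the other. Foxo3 had 49.7, 48.0 and 57.7 FPKM in the controls and 26.5, 26.7 and 25.9 FPKM with metformin. Of 10 glucocorticoid response genes, 1 was higher and 4 were lower, with a median of -0.44. Tsc22d3, the glucocorticoid-induced leucine zipper gene, had 526, 552 and 526 FPKM in the controls and 166, 172 and 175 FPKM with metformin (log2 fold change -1.64, adjusted p = 8.70e-05 by limma-trend). Zbtb16 (-1.57), Fkbp5 (-0.81) and Klf9 (-0.47) were also lower, and the phosphatase gene Dusp1 was higher (1.32). Of 8 tested hypoxia response genes, 3 were higher (Pdk1 by 1.03, Car9 by 0.88 and Egln1 by 0.41 on the log2 scale) and 0 were lower. The higher share was 37.5%, beside 13.2% of all tested genes. Car9 had a mean of 0.433 FPKM in the controls and 1.62 FPKM with metformin. It thus passed the limit of 0.5 FPKM only through the group where it was high, and its call adds little to that share. The call of Egln1 stood in 1 of the 6 fits with a sample omitted, as did those of Maf1, Nprl2, Rhebl1 and Tti2, and the calls of Rragd, Lamtor5, Ubqln1 and Foxo1 stood in 2. Those of Ddit3, Asns and Klf9 stood in 3, that of Ndrg1 in 4 and that of Prr5l in 5, and those of the other called list genes stood in all 6.

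**Figure D5:**
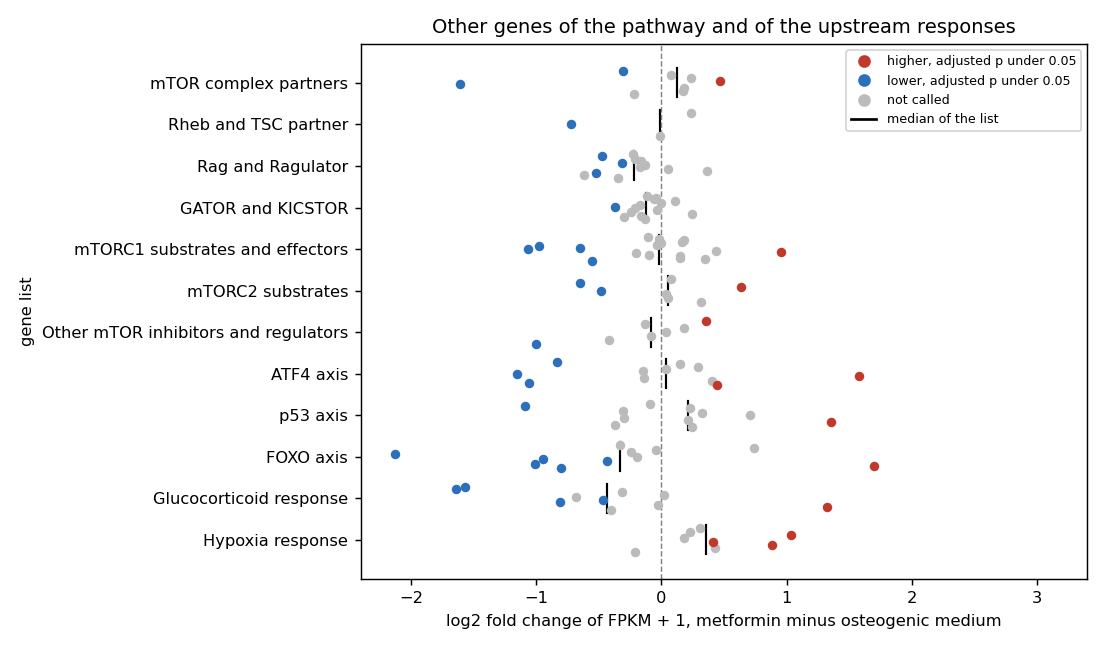
Log2 fold change of FPKM + 1, metformin minus osteogenic medium, of each tested gene in the 12 lists, in red where called higher, blue where called lower and grey where not called, with a black line at the list median. The Rag and Ragulator list has 0 red points and a median of -0.22, and the hypoxia list has 3 red points and 0 blue ones.

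Over the 6 samples, the genes whose log2(FPKM + 1) was most like that of Sesn1 among 7452 genes with a mean of at least 5 FPKM were Cd200, Mmp13 and Rab31, with Pearson correlations of 0.9991 to 0.9996. Those most like Deptor were Eml4, Dennd4c and Kdm5a, with 0.9952 to 0.9974. Each of these correlations rests on 6 points in 2 groups that share the difference between the groups.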

How the data were processed

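A single table made by the authors covers 54532 genes and 6 samples and lists a length per gene, whose definition is not stated. It names no unit. The deposited values were taken as FPKM because, multiplied by the gene length, 100% of those above 0 were whole multiples of a step fixed for the library (within 0.01). Bowtie 0.12.2 and the builds mm8 and mm9 are named in the submitters' processing notes with no role given. The counting tool and annotation are not given in the sources used here. The table's coordinates are those of GENCODE M21 (GRCm38) for 53499 of 54409 shared identifiers, the 10 genes included. Reads were recovered by dividing by that step. The library size implied by the step was 0.985 to 1.046 of the recovered reads, so the deposited values were not scaled to total reads. No sample values were left unused (0 such columns). A floor of 3 reads, chosen here, is 1.36e-05% to 1.63e-05% of a library, for counting error only.

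Groups were compared on log2(FPKM + 1) by limma-trend (limma 3.58.1, R 4.3.3) over 12681 genes with a mean of at least 0.5 FPKM. Low genes change by more in FPKM than such log2 fold changes show. Benjamini-Hochberg adjustment covered all tested genes, the threshold was 0.05, and the script was tested on simulated data. The simulated samples had the same spread setting in both groups, no trend with GC content and no replicate that stood apart. They therefore checked the code and say nothing of the calls in these data. The members and the lists were chosen with earlier results of these data known. Genes are named if they are members, 6 direct partners of members, or among the 4 largest called changes in each direction of a list, with the 3 genes most like each called member. Foxo1 was named after its values were seen. The fit was repeated with 0.1 as pseudocount, with libraries scaled to total reads, without the filter, with a minimum of 10 reads per sample, with the replicate number as a block, by voom on recovered reads, and with each sample omitted in turn. A correction for GC content (a spline with 5 degrees of freedom in each library, from the longest GENCODE transcript of 99.9% of tested genes) was chosen after the data were seen. Overlapping genes come from GENCODE M21, and promoter windows from RefSeq (GRCm38.p6). Figures were drawn with matplotlib 3.10.9.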

Additional observations from a re-analysis of the deposited data

How the results depend on the processing

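Genes higher and lower over the whole table were 1670 and 1177 with all samples, 2433 lower with the GC correction, chosen after seeing the data, and 698 lower with the replicate block. With one sample omitted in turn there were 938 to 2969 higher and 495 to 2590 lower genes, and omitting control replicate 1 gave the most in either direction.

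Members called higher were 0 with all samples, 1 with the GC correction and 0 to 1 across the fits without one sample. Members called lower were 2, 1 when low genes were kept in the test, and 1 to 4 across the same fits, with 4 without control replicate 1. Genes of the pathway lists called higher were 12 (19 with the GC correction, 8 to 24 without one sample) and lower 27 (42 with the GC correction, 17 to 47 without one sample, both maxima without control replicate 1). The 39 calls of list genes lost 10 with the replicate block, 7 with no filter, 1 with scaling by total reads and between 0 and 14 without one sample, and kept all with the other alternatives.

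Among the 10 genes, the log2 fold change of Mtor turned to -0.0092 with scaling by total reads and -0.034 with the GC correction, and ranged from -0.059 to 0.077 without one sample. That of Rictor passed at -0.61 with a pseudocount of 0.1, -0.46 with scaling by total reads, -0.44 with at least 10 reads in every sample, -0.63 with voom on recovered reads and -0.47 with the GC correction, and ranged from -0.51 to -0.31 without one sample. Deptor was no longer called at -0.68 with no filter on low values (adjusted p = 0.0572 by limma-trend) and ranged from -0.80 to -0.50 without one sample. Sesn2 passed at 0.32 with the GC correction and ranged from 0.24 to 0.55. Tsc1 ranged from -0.50 to -0.26, Ddit4 from -1.06 to -0.29 and Sesn3 from 0.094 to 0.33 without one sample. Rheb, not a member, ranged from -0.099 to 0.064 and turned to 0.064 without control replicate 1 and 0.0028 without metformin replicate 3. The median shift in log2 fold change over the tested genes was -0.054 for the GC correction and -0.025 for the scaling. The cause of the changes in Mtor and in the other genes was not tested.

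Same-numbered samples did not deviate together (correlations across genes of -0.053, 0.00027 and -0.055), and the labels do not pair them. With the replicate block the members called were the same 2, and the log2 fold changes were those of the fit without it.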
